A study of Mus musculus with 24 samples.

Results

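Axon guidance ligands and their receptors were examined in mouse neuroblastoma cells: 64 genes of 4 ligand and receptor systems, out of 21887 protein-coding genes on chromosomes 1-19, X and Y. The members were taken by gene family alone: 14 Eph receptors, 8 ephrins, 20 semaphorins, 11 plexins and neuropilins, 3 Slits, 4 Robo receptors and 4 netrins. Chromatin immunoprecipitation with sequencing had been done for 5 histone marks in N1E115, an established neuroblastoma line labelled NOS1+ (NOS1 is the symbol of neuronal nitric oxide synthase), kept for 3 days at 20% O2 (called normoxia in the labels) or 4% O2 (called hypoxia). Each mark had 2 libraries at each oxygen level, so 20 libraries are described here, and every one came from the same line. The labels give the tissue as brain and the cell type as neuroblast. Of 13 markers of noradrenergic neuroblastoma and neurons, 12 carried both active promoter marks in all 4 libraries, while none of the markers of glia (7 genes), endothelium (6), immune cells (5), fibroblasts (5) or liver and muscle (6) did.

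Guidance cues steer growing axons and migrating cells. Ephrins on one cell bind Eph receptor kinases on another, semaphorins signal through plexins with neuropilins as co-receptors for the secreted class 3 members, Slits repel through Robo receptors, and netrins attract or repel through DCC and UNC5 receptors. Sympathetic neuroblasts, the cells from which neuroblastoma arises, follow several of these cues as they leave the neural crest. Among the marks, H3K4me3 and H3K27ac lie at active gene starts, H3K27ac and H3K4me1 also at enhancers, H3K36me3 along the bodies of transcribed genes, and H3K27me3 over genes held silent by Polycomb.

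Promoter sequence is shown first for 5 members whose starts fell into different chromatin states. The 300 bases run from 250 before to 50 after the start, are given 5′ to 3′ on the gene's strand from RefSeq GRCm38.p6, and have each CG dinucleotide in capitals, because CG content is compared between promoter states. Nrp2 (chr1:62703067-62703366, plus strand) had H3K4me3 and H3K27ac at its start in all 4 libraries. Epha2 (chr4:141300971-141301270, plus strand) had H3K27me3 alone, and Sema3c (chr5:17574566-17574865, plus strand) had none of these marks. Slit3 (chr11:35121206-35121505, plus strand) lay in a gap between H3K27me3 islands. Within 1000 bp of its start H3K27me3 covered 0 and 1001 bp at 20% O2 and 601 and 201 bp at 4% O2, so its state differed between libraries. Epha8 (chr4:136956767-136957066, minus strand) had H3K27ac at its start in the 20% O2 libraries alone.
Nrp2: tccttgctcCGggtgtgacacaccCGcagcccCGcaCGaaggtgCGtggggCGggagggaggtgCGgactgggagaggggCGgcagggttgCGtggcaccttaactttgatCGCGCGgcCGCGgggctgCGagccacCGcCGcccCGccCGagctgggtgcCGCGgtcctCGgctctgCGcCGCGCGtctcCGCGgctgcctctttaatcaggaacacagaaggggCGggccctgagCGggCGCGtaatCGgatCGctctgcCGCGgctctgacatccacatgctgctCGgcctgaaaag
Epha2: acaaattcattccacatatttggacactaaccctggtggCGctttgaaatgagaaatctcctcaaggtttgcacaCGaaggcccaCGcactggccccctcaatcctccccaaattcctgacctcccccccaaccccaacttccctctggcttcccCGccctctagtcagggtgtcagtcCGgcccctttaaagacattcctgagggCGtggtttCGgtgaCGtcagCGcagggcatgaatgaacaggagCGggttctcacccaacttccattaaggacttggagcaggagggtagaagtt
Sema3c: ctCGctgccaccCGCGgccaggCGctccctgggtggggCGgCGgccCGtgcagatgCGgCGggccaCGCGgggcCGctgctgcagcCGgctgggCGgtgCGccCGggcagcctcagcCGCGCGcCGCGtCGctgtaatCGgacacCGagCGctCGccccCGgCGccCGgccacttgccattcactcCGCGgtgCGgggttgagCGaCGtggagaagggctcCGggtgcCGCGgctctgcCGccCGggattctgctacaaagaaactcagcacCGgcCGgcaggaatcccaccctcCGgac
Slit3: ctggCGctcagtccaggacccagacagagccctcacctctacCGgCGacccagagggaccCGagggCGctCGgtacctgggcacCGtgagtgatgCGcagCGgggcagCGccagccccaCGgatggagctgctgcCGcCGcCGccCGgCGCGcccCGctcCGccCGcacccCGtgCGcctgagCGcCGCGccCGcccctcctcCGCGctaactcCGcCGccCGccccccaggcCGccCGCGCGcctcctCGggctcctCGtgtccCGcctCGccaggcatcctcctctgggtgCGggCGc
Epha8: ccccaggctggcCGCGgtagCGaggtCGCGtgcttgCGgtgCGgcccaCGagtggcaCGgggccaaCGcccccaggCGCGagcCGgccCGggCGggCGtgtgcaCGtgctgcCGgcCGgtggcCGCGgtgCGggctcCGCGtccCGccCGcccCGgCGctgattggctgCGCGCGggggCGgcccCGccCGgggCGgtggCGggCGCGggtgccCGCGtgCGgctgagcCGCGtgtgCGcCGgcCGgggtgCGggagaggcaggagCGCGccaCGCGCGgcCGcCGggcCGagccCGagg
They hold 37, 10, 42, 41 and 56 CG dinucleotides in that order, against a median of 14 over the 17492 promoters of protein-coding genes in the same table.

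The state of the gene starts was mixed within most families, with plexins and neuropilins most often active and Eph and Robo receptors seldom or never so. A mark was counted at a start where it covered at least 200 bp within 1000 bp either side, and a state was called where all 4 libraries gave it. H3K4me3 with H3K27ac marked 22 of the 64 members (34.4%) and 40.6% of all genes. H3K27me3 alone marked 5 members (7.81%, against 8.35% of all genes), H3K4me3 alone marked 1 member, Efna4 (1.56%, against 2.52%), and 23 members had neither H3K4me3 nor H3K27me3 (35.9%, against 30.2%). No member carried H3K4me3 together with H3K27me3 in all 4 libraries, a state held by 254 of all genes (1.16%). In the remaining 13 members the state differed between libraries. For 8 members with no promoter entry the start was taken as the record end with more H3K4me3, so the H3K4me3 of 4 of the 22 active members (Slit1, Plxna1, Plxna4 and Sema3f) helped to choose the position. Differences between families were not tested.

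Among the receptors, those for semaphorins were mostly in the active state and those for ephrins and Slits were not. The active state was found in 8 of 11 plexins and neuropilins (Nrp1, Nrp2, Plxna1, Plxna3, Plxna4, Plxnb1, Plxnb2 and Plxnd1). It was found in 1 of 14 Eph receptors, Epha10, and in none of the 4 Robo receptors. Epha2, Epha4 and Ephb1 carried H3K27me3 alone in all 4 libraries, as did Robo3 and Robo4. The Robo3 and Robo4 genes lie next to each other and their windows overlap, so these 2 values are not independent. Epha1, Epha3, Epha5, Epha6, Ephb3, Ephb4, Ephb6, Robo1 and Robo2 had neither H3K4me3 nor H3K27me3 at the start, nor did Plxna2 and Plxnb3.

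Among the ligands, the active state was found in Slit1 and Slit2, in Efna1, Efna2 and Efna5, in Ntn3, and in 7 of 20 semaphorins (Sema3f, Sema3g, Sema4a, Sema4b, Sema4c, Sema6b and Sema6d). Ligand starts with neither H3K4me3 nor H3K27me3 were those of the secreted Sema3a, Sema3b, Sema3c, Sema3d and Sema3e, the transmembrane Sema4d, Sema5a and Sema5b, the ephrins Efnb2 and Efnb3, and the netrins Ntn1 and Ntn5. The Sema4d start is the listed one, and it was not without marks: H3K27ac covered 1185 and 1501 bp around it at 20% O2 and 1570 and 1562 bp at 4% O2, and H3K4me1 covered 1545 to 2001 bp. A peak of H3K4me3 of 2.98 to 3.49 kb stood at the far end of its gene record, 42 to 45 kb upstream of that start, in every library. At the position used for Ntn1, H3K4me1 covered 1007, 1060, 0 and 1083 bp, and H3K27ac 263 and 382 bp in the second libraries. Ntn1, Efnb3 and Sema3b have no promoter entry. No library had H3K4me3 at the record end used for them, so H3K4me3 did not settle which end is the start, and it may be the 3′ end. H3K4me3, with or without another mark, was at the start in all 4 libraries in 32 of 64 members, made up of 3 Eph receptors, 5 ephrins, 12 semaphorins, 9 plexins and neuropilins, 2 Slits and 1 netrin.

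**Figure D1:**
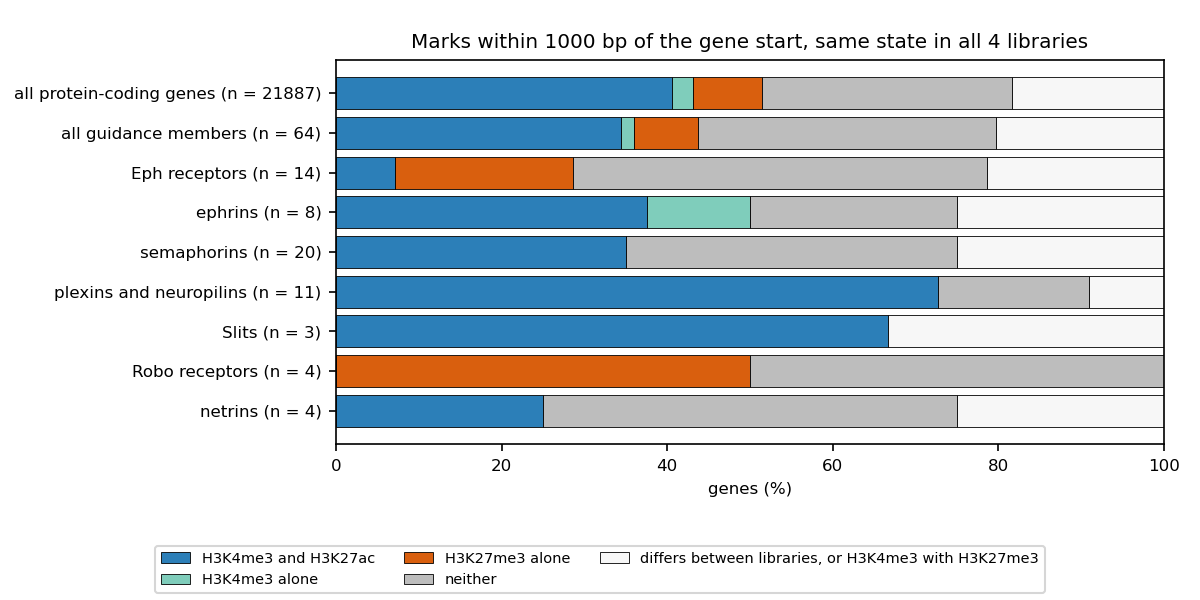
Share of genes (%) in each promoter state in all 4 libraries, for all protein-coding genes, the 64 guidance genes and each family, with n beside each name. The bar for plexins and neuropilins is filled mostly by H3K4me3 with H3K27ac (8 of 11), while the Robo bar holds none of it.

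Active starts were more frequent among genes acting downstream of these receptors, a difference that was not tested. Of 46 intracellular effectors (such as collapsin response mediators, kinases and actin regulators), 34 (73.9%) had H3K4me3 with H3K27ac at the start. So did 13 of 24 (54.2%) other guidance receptors and adhesion molecules such as the DCC, UNC5 and L1 families, against 40.6% of all genes. H3K27me3 alone marked 2 of the effectors (4.35%) and none of those 24 genes, against 8.35% of all genes.

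Over gene bodies, the plexins and neuropilins again stood at one end and the Eph and Robo receptors at the other. A gene was put in a class where a mark covered at least 25% of its record in all 4 libraries. H3K36me3 reached that share in 16 members without H3K27me3 (25%, against 38.2% of all genes) and H3K27me3 in 8 without H3K36me3 (12.5%, against 11.7%). The H3K36me3 class held 7 of 11 plexins and neuropilins, 6 of 20 semaphorins, 1 Eph receptor, 1 ephrin and 1 Slit, and none of the Robo receptors or netrins. The H3K27me3 class held 4 Eph receptors, 2 Robo receptors, 1 netrin and 1 semaphorin. Of the effectors, 34 of 46 were in the H3K36me3 class, and of the other guidance receptors 10 of 24.

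The remaining values are the percentage of a gene window, which is the gene record and 10 kb either side, that is covered by peaks or islands of a library, with library 1 before library 2. Nrp2, the neuropilin known as a co-receptor for Sema3f, was covered by H3K36me3 over 83.8% and 86.6% at 20% O2 and over 85.8% and 86.0% at 4% O2. Sema4d, the ligand of Plxnb1, had 77.6% and 83.6%, then 88.4% and 83.6%. Efna5, a GPI-anchored ephrin, had 71.8% and 87.1%, then 47.7% and 91.4%, and its libraries of one oxygen level were further apart than the levels were. Slit2 had 47.7% and 51.8%, then 42.7% and 56.1%. In each of these 4 genes the 4% O2 values overlapped those at 20% O2.

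Epha1 had the highest H3K36me3 of the Eph receptors, at 46.5% and 47.7% and then 43.1% and 40.8%, but without H3K4me3 at its own start. Both 4% O2 libraries were below both at 20% O2 (difference -5.17 points, SE 2.70, limma adjusted p = 0.88). Its H3K36me3 island lay over the 3′ part of the gene (chr6:42350801-42367600) and began beside H3K4me3 in the direction of the neighbouring Zyx. Ntn3, with 51.6% and 62.6% and then 64.1% and 25.8%, shares its window with Tbc1d24 and Tedc2. In all, 36 of the 64 windows hold another protein-coding gene, so a covered share can belong to a neighbour in those windows.

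H3K27me3 covered the whole Epha2 window in every library (100%). Ephb2 had 95.5% and 98.7% at 20% O2 and 98.1% and 98.1% at 4% O2. Ephb1 had 69.6% and 72.8%, then 73.2% and 72.1%, and Epha4 had 61.3% and 87.1%, then 64.5% and 80.3%. Robo4, the Robo receptor known from endothelium, had 86.9% and 97.5%, then 95.02% and 95.6%. The ligands Sema5a (64.9% and 85.9%, then 77.4% and 94.6%) and Ntn4 (74.2% and 68.0%, then 79.5% and 58.4%) were covered over most of their windows too. Efnb1, the highest ephrin, ranged from 26.5% to 81.2%, and Plxna2, the highest semaphorin receptor, from 6.73% to 25.8%. The Efnb1 record alone had 26.2% and 0%, then 55.5% and 0%, so in the second libraries its H3K27me3 lay in the flank only. None of these genes had libraries that separated by oxygen level for H3K27me3.

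A further group of members had almost no mark at all. Under 2% of the window was covered by every mark in every library for Epha3, Epha5, Robo2, Sema3a, Sema3d and Sema3e, and the windows of Sema3d and Sema3e held no peak or island of any mark. A share over all genes is not given for that 2% limit. No H3K27me3 was found in any library in 35 of the 64 windows, and no H3K36me3 in 25. Any H3K27me3 was thus found in 29 of 64 member windows, against 7782 of 21887 over all genes. Any H3K36me3 was found in 39 of 64, against 13420 of 21887.

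**Figure D2:**
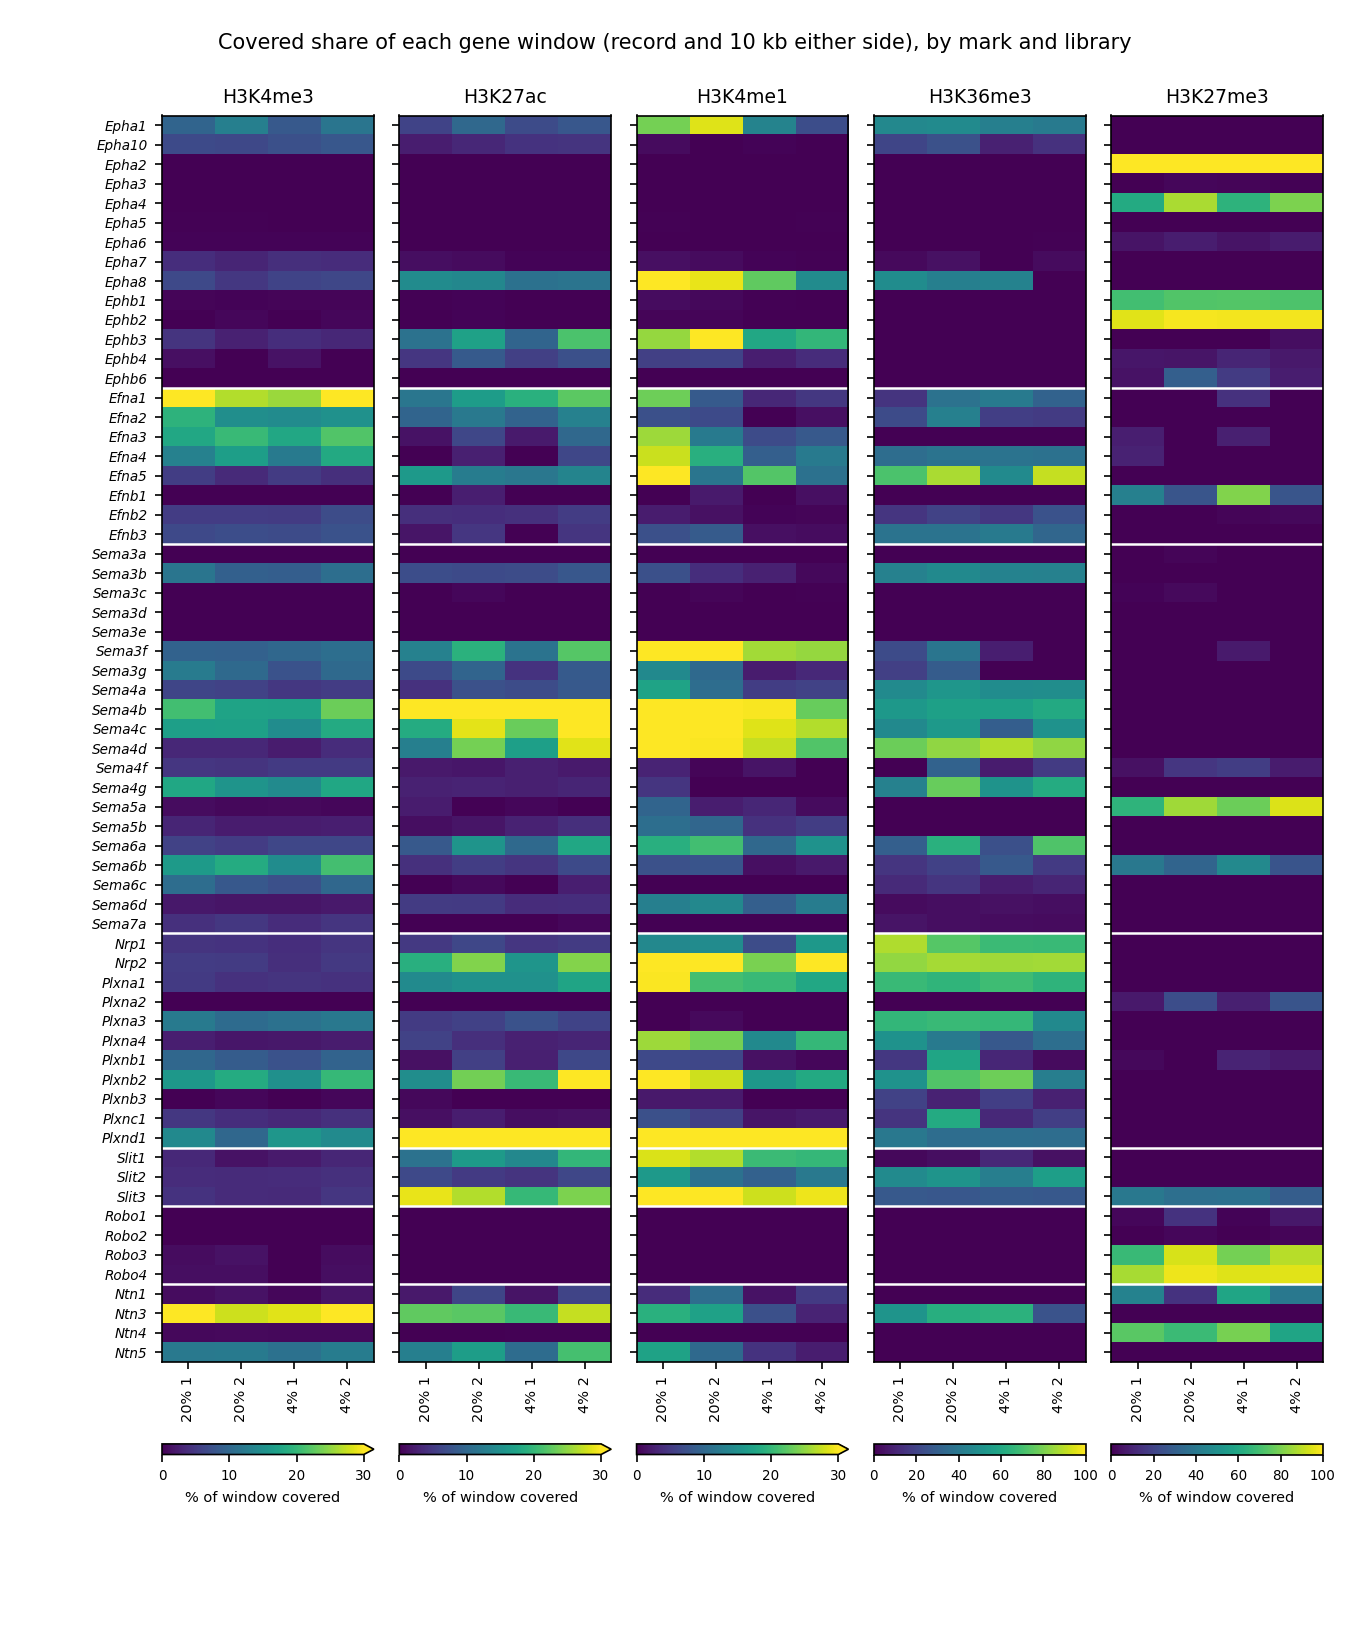
Covered share of each gene window (%, colour) for the 64 genes (rows, grouped by family) in the 4 libraries of each mark (columns, oxygen level and library number). The colour scales of H3K4me3, H3K27ac and H3K4me1 stop at 30%, and the rows of Epha2, Ephb2, Robo3 and Robo4 are bright under H3K27me3 and dark under the other marks.

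Guidance promoters held more CG than promoters at large. RefSeq promoters were matched for 56 of the 64 members, which had a median of 20.5 CG dinucleotides in 300 bases, with 76.8% of them at or above 14, the median of all promoters. The 20 matched members with neither H3K4me3 nor H3K27me3 had a lower median, 15 (range 2 to 42), whereas the 5232 such genes among all had a median of 3. At least 14 CG were present in 13 of those 20 members (65.0%) and in 14.1% of all genes of that state. The 5 members with H3K27me3 alone had a median of 14, against 4 for all genes in that state. For H3K4me3 with H3K27ac the medians were 22 in members and 23 in all genes. Sema3c, printed above, had the most CG of these 20 members. The starting set was chosen by family and not by state or sequence, though with earlier results of these data known. These shares are descriptions with no test.

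The letters ACGTG and GCGTG, forms of the core bound by hypoxia-inducible factors, were searched on both strands. ACGTG was in 12 of 56 member promoters (21.4%) and in 20.7% of all promoters, and GCGTG in 25 (44.6%) and 38.9%. The Epha8 and Sema3c promoters held both.

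**Figure D3:**
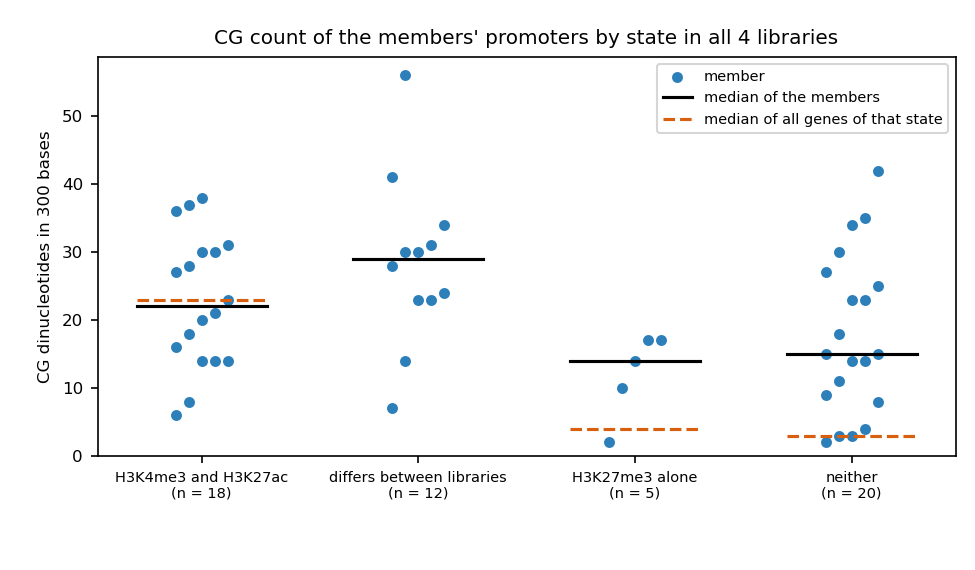
Number of CG dinucleotides in 300 promoter bases (vertical axis) for each member with a RefSeq promoter, by promoter state, with the median of the members (black) and of all genes in that state (dashed). The medians lie close together for H3K4me3 with H3K27ac (22 and 23) and apart for genes with neither H3K4me3 nor H3K27me3 (15 and 3).

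Slit3, which encodes a secreted repellent, carried silent and active marks over different parts of one gene. Its record is 587052 bp long (chr11:35121456-35708507, plus strand). H3K27me3 islands covered most of the first part, and the last of them ended 239.34 and 242.14 kb from the start at 20% O2 and 242.14 and 241.94 kb from it at 4% O2. H3K36me3 began 423.34 and 423.54 kb from the start, then 416.54 and 423.14 kb, and ran to the end of the gene. Just at that border stood the longest H3K4me3 peak, of 6.36 and 7.83 kb at 20% O2 and 5.67 and 8.67 kb at 4% O2, beginning about 422 kb from the start (422.09, 422.91, 422.26 and 422.08 kb). H3K27ac and H3K4me1 filled the stretch around it.

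No H3K4me3 was found at the annotated start of Slit3. Slit3 was the only member with both H3K36me3 and H3K27me3 over at least 25% of the record in all 4 libraries, a state of 14 of all genes (0.064%). Its H3K27me3 covered 40.2% and 36.6% of the window at 20% O2 and 36.9% and 29.5% at 4% O2, and its H3K36me3 27.7% and 27.3%, then 28.5% and 27.5%. The order of the marks along the gene was the same in all 4 libraries.

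**Figure D4:**
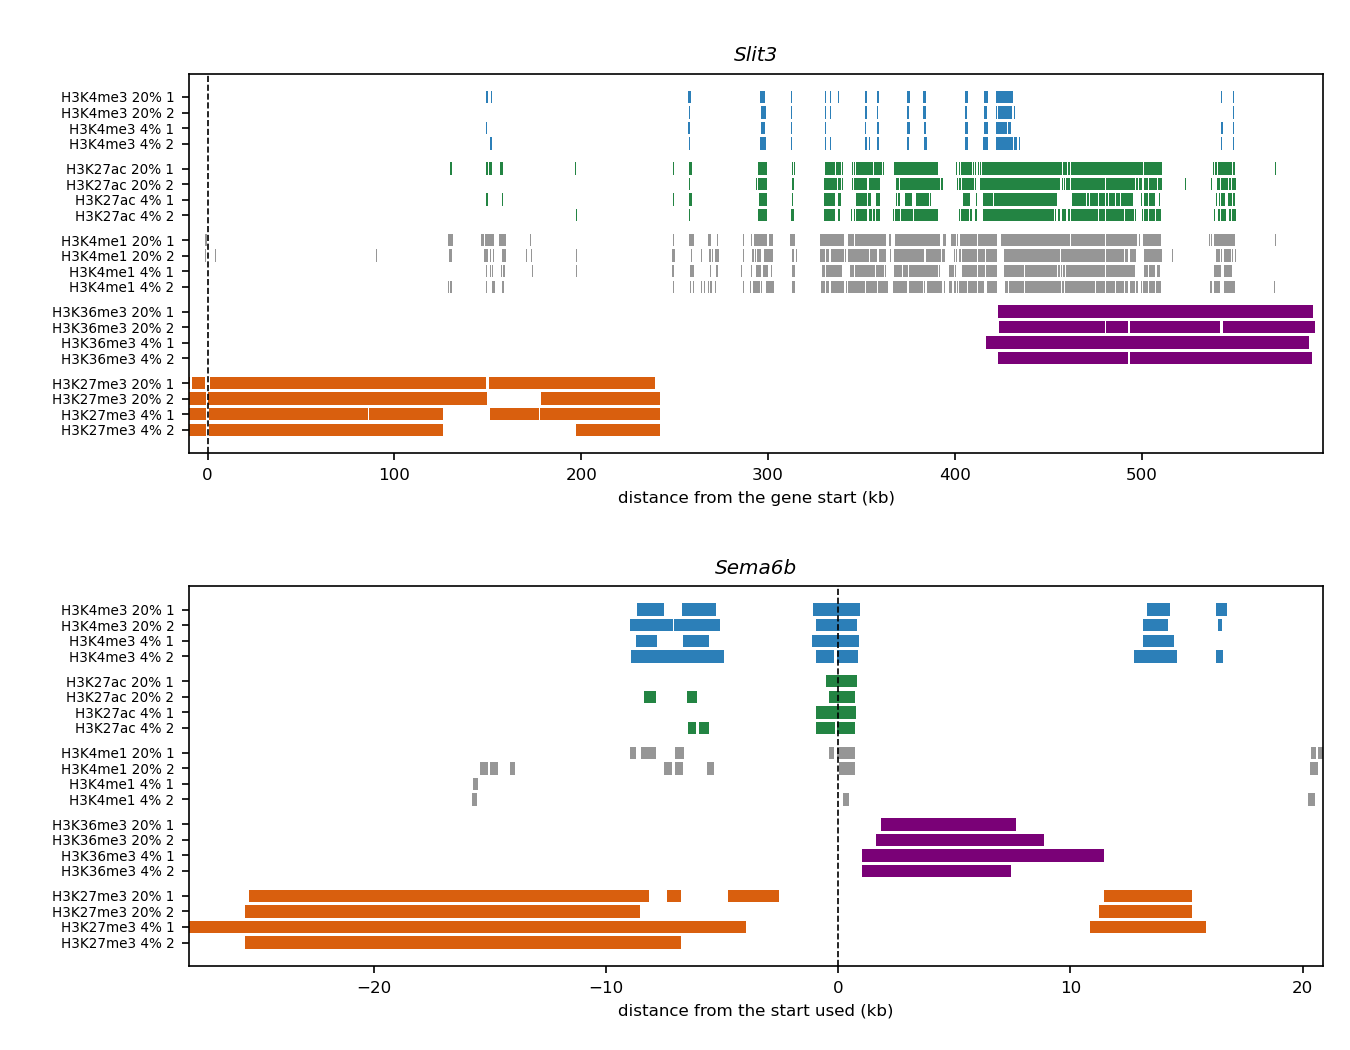
Positions of peaks and islands of at least 200 bp in each library over Slit3 and Sema6b, against distance in kb from the gene start in the direction of transcription (dashed line at 0). In Slit3, H3K27me3 fills the left part and H3K36me3 the right part in all 4 libraries, and in Sema6b H3K36me3 lies just downstream of the start, with H3K27me3 upstream of it and, in 3 libraries, further downstream too.

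Sema6b, a transmembrane semaphorin, also had both marks in its window, largely in separate stretches. H3K4me3 stood at its start (position 56133852 on chromosome 17, minus strand) in every library, with 2.03, 1.80 and 2.03 kb in single peaks and in the second 4% O2 library 0.88 and 0.81 kb in a split one. H3K36me3 islands of 5.8 and 7.2 kb at 20% O2 and 10.4 and 6.4 kb at 4% O2 began 1.05 to 1.85 kb downstream. H3K27me3 islands of 17.2, 17.0, 24.0 and 18.8 kb lay upstream of this start. The gene record itself begins further upstream, at 56140343, and H3K4me3 peaks covered that position too in every library. The 24.0 kb island (56137801 to 56161800) reached into the record. Further H3K27me3 islands of 3.8, 4.0 and 5.0 kb lay 10.85 to 15.85 kb downstream of the start in both 20% O2 libraries and the first at 4% O2. In that 4% O2 library this island (56118001 to 56123000) overlapped the end of the H3K36me3 island (56122401 to 56132800). Lrg1 and Plin5 share this window.

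Some members had H3K4me3 only inside the gene. In 7 members (10.9%) H3K4me3 was present inside the record in all 4 libraries and absent within 1000 bp of the listed start and of the record ends, against 801 of all genes (3.66%). They were Slit3, Efnb2, Sema5a, Sema5b, Ephb3, Ntn1 and Ntn5. In Efnb2, a transmembrane ephrin, a peak of 3.44 and 3.11 kb at 20% O2 and 3.32 and 3.61 kb at 4% O2 lay 38.7 to 39.12 kb from the start, near the 3′ end. In Sema5a the longest internal peak lay 84.27 to 85.18 kb from the start, within a gene mostly covered by H3K27me3, and in Ephb3 it lay 5.79 to 6.33 kb from the start.

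Plxnd1, the receptor of Sema3e in vessels and neurons, had the most H3K27ac and H3K4me1 of any member. H3K27ac covered 63.6% and 68.3% of its window at 20% O2 and 46.7% and 76.1% at 4% O2, and H3K4me1 79.0% and 70.7%, then 68.2% and 62.5%. Its longest H3K27ac peaks measured 16.3 and 8.74 kb, then 11.7 and 16.5 kb. Sema4b followed, with H3K27ac over 37.5% and 35.7%, then 37.3% and 36.6%. Sema3e, the ligand of Plxnd1, had no mark.

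Oxygen levels were compared next, for each mark separately. With 2 libraries against 2, an exact two-sided permutation test of a single value cannot go below p = 0.333, so genes were tested together with limma on the covered share, and members were also counted where both 4% O2 libraries lay above, or below, both at 20% O2. The labels do not say whether the libraries of one group stem from different cultures. The p-values measure only the spread between these libraries, which may be technical. File headers place all second libraries on one flow cell. Of the first libraries, those at 20% O2 and the 4% O2 library of H3K4me1 share another flow cell, and the rest at 4% O2 lie on 1 more, so for the other 4 marks flow cell and oxygen level cannot be told apart in the first set. A member whose libraries separate has the same direction within the second set. There the 20% and 4% O2 libraries of H3K4me1 and of H3K4me3 lay on different lanes (7 and 6), as did those of H3K4me1 in the first set (1 and 2), so lane and oxygen level cannot be told apart for them. Libraries held 26489 to 50496 peaks for H3K4me3, 60786 to 94286 for H3K27ac, 99749 to 126503 for H3K4me1, and 17535 to 20804 and 22718 to 34471 islands for H3K36me3 and H3K27me3.

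No member passed the test for any mark without a term for the library set. By limma with Benjamini-Hochberg adjustment over all genes tested, 0 of 42 members tested were called for H3K4me3 (0.0702% of all genes), 0 of 40 for H3K27ac, 0 of 40 for H3K4me1, 0 of 38 for H3K36me3 and 0 of 23 for H3K27me3 (0.0% of all genes in these 4). At an unadjusted p under 0.05 there were 0, 1, 18, 3 and 1 members in that order, against 1.85%, 4.86%, 27.6%, 6.92% and 6.31% of all genes. With the set (first or second libraries) as a replicate block, limma called 16 members for H3K4me1, all lower at 4% O2, against 19.7% of all genes. With that block it called 0 members for the other marks (0.232% of all genes for H3K4me3 and 0.0% for the rest). For H3K4me1 the set is the flow cell.

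H3K4me1 was lower at 4% O2 over most members, as over most genes. Both 4% O2 libraries were below both at 20% O2 in 36 of 50 members with any H3K4me1 and above in 0, against 62.4% and 0.284% of all genes. H3K4me1 was lower within both sets in 40 of 50 members, a count made for members only, with no share over all genes. The median difference, 4% minus 20% O2, was -5.57 percentage points over members and -2.65 over all genes. The summed covered length in member windows at 4% O2 was 0.631 of that at 20% O2 in the first set and 0.795 in the second, and 0.555 and 0.748 over all genes. The H3K4me1 peaks of the whole library covered 105.9 and 81.8 Mb at 20% O2 and 61.0 and 63.8 Mb at 4% O2, so the members moved with a difference in how much was called everywhere. Its part in the result was not tested. Among genes tested by limma, the median difference was -6.97 points in members and -3.63 in all genes. With an equal number of peaks per library these medians were -6.43 and -3.21.

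The widest gaps in H3K4me1 were in 3 semaphorin pathway genes, an Eph receptor and a netrin. Sema4c, a transmembrane ligand of Plxnb2, had 41.8% and 42.7% at 20% O2 and 28.6% and 26.5% at 4% O2. Plxnb2 itself had 31.2% and 27.7%, then 16.02% and 18.2%. Sema3f had 42.9% and 38.9%, then 25.8% and 25.3% (difference -15.3 points, SE 4.92, limma adjusted p = 0.16). Epha1 had 23.8% and 28.5%, then 13.4% and 7.13% (difference -15.9 points, SE 4.08, limma adjusted p = 0.16). Ntn3 had 19.1% and 17.1%, then 7.36% and 2.98%. None of the 5 passed after adjustment without the block, and with it all 5 did (limma adjusted p = 0.0027 to 0.039). Among the other pathway genes, 13 of 18 other guidance receptors and 28 of 45 effectors with H3K4me1 had both 4% O2 libraries below both at 20% O2.

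**Figure D5:**
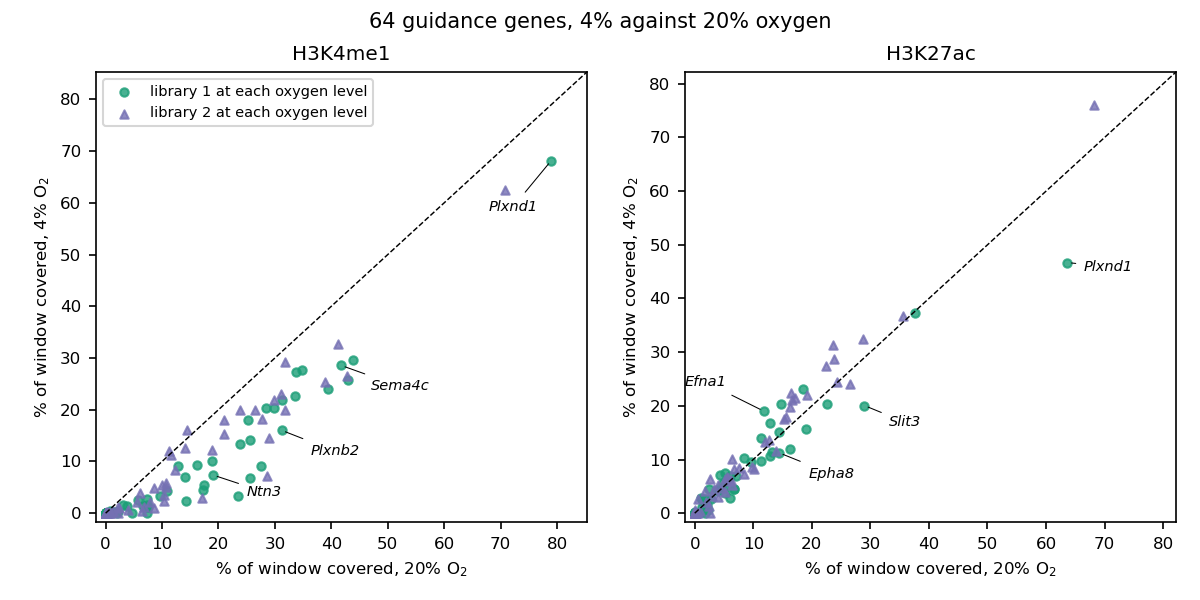
Covered share of the window (%) at 4% O2 against 20% O2 for each of the 64 genes, with one symbol for each set of libraries and a dashed line of equality. Most H3K4me1 points lie below the line (lower within both sets in 40 of 50 members, not counted over all genes), and H3K27ac points lie on either side of it.

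H3K27ac moved in both directions. Libraries separated in 8 of 51 members with higher and 6 with lower coverage at 4% O2, against 23.8% and 7.64% of all genes. The median difference was 0.28 points in members and 0.37 in all genes. Within the second set the summed H3K27ac length over members at 4% O2 was 1.03 times that at 20% O2, and within the first 0.814 times.

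Efna1, an ephrin known as a ligand of Epha2, had 11.8% and 16.5% H3K27ac at 20% O2 and 19.003% and 22.4% at 4% O2 (difference 6.53 points, SE 3.26, limma adjusted p = 0.99). Its window also holds Dpm3 and Slc50a1. Sema5b had 1.06% and 1.70%, then 2.90% and 4.10%, and was the member with an unadjusted p under 0.05 (difference 2.12 points, SE 0.66, limma adjusted p = 0.98). Epha10, an Eph receptor whose kinase is thought to be inactive, had 2.44% and 3.29%, then 4.45% and 4.50%. Plxna3 had 5.17% and 5.81%, then 7.53% and 6.04%, and Ntn4 had 0% and 0%, then 0.189% and 0.204%. The values of these 5 genes did not overlap between oxygen levels.

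Epha8 had a peak of H3K27ac at its start at 20% O2 only. Within 1000 bp of the start H3K27ac covered 576 and 764 bp in the 20% O2 libraries and 0 bp in both 4% O2 libraries, while H3K4me3 there covered 1870 and 1557 bp and then 1772 and 1551 bp. A longer H3K27ac peak, 2.76 to 6.70 kb upstream of the start, was present in all 4 libraries (3.52 and 2.70 kb, then 3.05 and 3.15 kb). Over the whole Epha8 window H3K27ac covered 14.4% and 13.9%, then 11.2% and 11.5% (difference -2.78 points, SE 1.96, limma adjusted p = 0.99). H3K36me3 over this Eph receptor was present in 3 libraries (48.5%, 43.0% and 44.3%) and listed at 0% in the second 4% O2 library.

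Slit3 was another gene with less H3K27ac at 4% O2, with 29.0% and 26.5%, then 20.1% and 24.1% (difference -5.66 points, SE 4.39, limma adjusted p = 0.995). The transmembrane Sema6d had 5.19% and 5.09%, then 3.77% and 3.89%. Plxna4, a receptor complex partner for class 3 semaphorins, had 5.97% and 4.06%, then 2.77% and 3.09%. Epha7 had 1.13% and 0.87%, then 0.30% and 0.32%. Of the effectors, 11 of 43 were higher and 2 lower by the same count, and of the other guidance receptors 2 of 19 were higher and 2 lower.

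H3K4me3 differed little between oxygen levels. Libraries separated in 5 of 53 members with higher and 6 with lower coverage, against 4.41% and 15.9% of all genes, and the median difference was 0.002 points over members and -0.23 over all genes. Epha10, with 6.72% and 6.55% at 20% O2 and 7.38% and 8.09% at 4% O2, was higher at 4% O2. Sema3f had 9.39% and 9.32%, then 10.04% and 10.8%. Plxnd1 had 14.2% and 10.05%, then 15.7% and 14.4%, the widest difference in means among the higher members. Sema6a had 5.95% and 5.32%, then 6.36% and 6.33%. Sema4f had 4.73% and 4.57%, then 5.05% and 5.14%, and its direction turned (-0.43 points) when the gene record alone was used.

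Sema4a and Nrp2 were among the members with less H3K4me3 at 4% O2. Sema4a, a transmembrane semaphorin, had 6.31% and 5.96%, then 4.83% and 5.35%. Nrp2 had 5.30% and 5.23%, then 4.05% and 4.96%. Epha5 (0.133% and 0.128%, then 0% and 0%), Robo3 and Ntn4 were near 0 throughout. No gap between the libraries of the oxygen levels reached 2 percentage points for H3K4me3 in any member.

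H3K36me3 was most often lower at 4% O2 where libraries separated. Libraries separated in 3 of 39 members with higher and 10 with lower coverage, against 9.85% and 21.0% of all genes, and the median difference was -1.58 points in members and -0.957 in all genes. Sema3g, a secreted semaphorin, had 19.1% and 28.9% at 20% O2 and was listed at 0% in both 4% O2 libraries (difference -24.015 points, SE 4.14, limma adjusted p = 0.52). Tnnc1 and Phf7 lie in the same window. Sema3f had 22.9% and 38.8%, then 8.57% and 0%. Nrp1, the main co-receptor of Sema3a, had 88.1% and 73.6%, then 68.1% and 68.0%. Epha10 had 21.0% and 24.9%, then 9.24% and 14.2%, and Plxnb1 had 16.1% and 58.6%, then 10.9% and 3.04%. Over the gene record alone Plxnb1 had 8.44% and 82.5%, then 19.2% and 0%, and the oxygen levels overlapped. The Epha10 record alone had 4.965% and 11.031%, then 0% and 0%. Most of the H3K36me3 in its window at 20% O2, and all of it at 4% O2, lay past the gene end. Maneal and Cdca8 share that window, so this H3K36me3 can belong to a neighbour. The Epha10 window thus had more H3K4me3 and H3K27ac and less H3K36me3 at 4% O2, each without overlap and none past the test. The 3 higher members were Slit1 (1.99% and 3.65%, then 10.96% and 4.59%), Sema6d (3.04% and 3.65%, then 4.48% and 3.85%) and Epha6 (0.22% and 0.22%, then 0.28% and 0.44%). Over the gene record alone only Sema6d of these still separated (3.11% and 3.49%, then 4.53% and 3.67%). The Slit1 record had 0% and 3.75%, then 8.03% and 3.75%, and its window also holds Lcor. The Epha6 record held no H3K36me3 in any library, so its share lay in the flank, in a window shared with Arl6.

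H3K27me3 separated by oxygen level in 4 members, and in the 3 that were higher at 4% O2 it lay in the flanks and not in the gene. Coverage was higher at 4% O2 in 3 of 29 members and lower in 1, against 22.9% and 5.14% of all genes, with a median difference of 0.958 points in members and 2.18 in all genes. Plxnb1, a receptor of Sema4d, had 1.99% and 0%, then 9.80% and 7.20% (difference 7.51 points, SE 1.97, limma adjusted p = 0.71). Its record held no H3K27me3 in any library, and the island (109126601 to 109168600 on chromosome 9 in the second 4% O2 library) began past the gene end at 109119915. Ephb4, the receptor of Efnb2 in veins, had 6.13% and 5.68%, then 10.2% and 7.03%. Efnb2 was listed at 0% in both 20% O2 libraries and had 1.51% and 2.13% at 4% O2. The Ephb4 and Efnb2 records held no H3K27me3 either. Sema3c had 1.14% and 2.39%, then 0% and 0%.

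The density of reads inside islands was compared for the broad marks, as island reads per covered kb scaled to 1000000 island reads in the library, in regions with an island in all 4 libraries. By edgeR's quasi-likelihood test with Benjamini-Hochberg adjustment, 0 of 36 member regions were called for H3K36me3 (0.0% of 10858 regions) and 0 of 30 for H3K27me3 (0.0% of 10177). At an unadjusted p under 0.05 there were 5 and 4 member regions, against 9.03% and 9.45% of all regions, and DESeq2 called 0 of them after adjustment. With the set as a replicate block, edgeR called 5 H3K36me3 regions of members, all higher at 4% O2 (10.4% of all regions), and 5 H3K27me3 regions, 4 of them higher (11.7%). The H3K36me3 regions lay in Efna5, Sema4d and Plxnd1, and those of H3K27me3 in Epha4, Ephb1, Ntn1 and Sema6b. Regions of the same gene were counted separately. The log2 ratio of 4% to 20% O2 ran from -0.20 to 0.47 over the H3K36me3 regions of members and from -0.27 to 0.40 over those of H3K27me3. H3K36me3 density was higher in both 4% O2 libraries in 11 of 36 member regions and lower in 2, against 28.0% and 13.4% of all regions.

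The largest log2 ratios of H3K36me3 density were in Plxnd1 and Efna5. Plxnd1 (chr6:115950601-115973200) had 2.95 and 2.30 scaled reads per kb at 20% O2 and 4.44 and 3.14 at 4% O2 (log2 ratio 0.47, SE 0.17, edgeR adjusted p = 0.48). Efna5 had 4 regions, all with higher density in both 4% O2 libraries, with log2 ratios of 0.25 to 0.45. In the longest of them (chr17:62696001-62879800) the density was 2.21 and 2.43, then 2.96 and 3.03 (log2 ratio 0.31, SE 0.12, edgeR adjusted p = 0.49). These 4 regions belong to one gene and are not replicates. Density in the Slit3 body was 6.71 and 5.40, then 7.55 and 5.29, the highest of any H3K36me3 region of a member, and did not separate (log2 ratio 0.02, SE 0.18).

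Among H3K27me3 regions, the stretch upstream of the Sema6b start used (chr17:56136401-56161800) had 5.29 and 5.23 scaled reads per kb at 20% O2 and 5.81 and 7.59 at 4% O2 (log2 ratio 0.40, SE 0.14, edgeR adjusted p = 0.43). This stretch overlaps the 5′ part of the Sema6b gene record. Ntn1 had 2 regions, with log2 ratios of 0.28 and 0.30. Densities did not overlap in the first (2.32 and 2.05, then 2.58 and 2.50) and did in the second (2.75 and 2.02, then 2.92 and 2.65). The region over Epha2 had 4.05 and 5.08, then 4.23 and 5.29, with a log2 ratio of 0.10 (SE 0.17). The libraries of one set resembled each other more here than those of one oxygen level. H3K27me3 density was higher in both 4% O2 libraries in 4 of 30 member regions and lower in 7, against 9.7% and 23.0% of all regions.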

How the data were processed

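Peaks and islands of 5 histone marks were used for 20 of the 24 samples (4 inputs were not analysed here). Per the submitters' processing notes, reads were processed with BWA, Picard, MACS2 and SICER on mm10, with no versions given. Per the file headers, MACS2 peaks (H3K4me3, H3K27ac, H3K4me1) and SICER islands (H3K36me3, H3K27me3) were called for each library. The score deposited with each peak was read as −log10 of the q-value (lowest values 2.009 to 2.113), since no header names it. The deposited number of each island is the whole-number count of reads in it, with 8479517 to 25048785 island reads per library. Read totals of the MACS2 libraries were not used, so the depth behind those peaks is unknown. The second library of each group is listed with its own file and again under the first sample, and the positions in both matched (100%).

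From these files, the covered share of each gene window (RefSeq record of the mm10 assembly and 10 kb either side) was computed and tested with limma 3.58.1 (trended variance, genes with a mean share of at least 1%, R 4.3.3). Island reads were tested with edgeR 4.0.16 (quasi-likelihood, TMM, offset for covered length), with DESeq2 1.42.0 as an alternative. Both were tested on simulated data. For 8 members without a RefSeq promoter entry the record end with more H3K4me3 served as the start. This left the end unsettled for Ntn1, Efnb3 and Sema3b, which had no H3K4me3 there. Named genes are the 5 members per mark and direction with the widest gap between oxygen levels, the member of each family with the most H3K36me3 or H3K27me3 at 20% O2, and members in called regions. Genes outside this rule (such as Sema4b, Ephb1, Ephb2, Epha4, Sema6b and the internal peaks) were chosen after their values were seen. The members, gene lists and tests were chosen with earlier results of these data known.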

Additional observations from a re-analysis of the deposited data

How the results depend on the processing

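Counts of members and of their regions were recomputed with other filters, scales, windows, thresholds and tools. Of these values 108 stayed within 1.5 times, 11 moved and 6 gained calls. Many of the 108 are counts of called members or regions that were 0 and stayed 0. Requiring a gap of 2 points between oxygen levels left 0 higher and 0 lower members for H3K4me3, 1 and 2 for H3K27ac, 0 higher for H3K36me3, and 1 and 0 for H3K27me3. With an equal number of peaks per library 3 members were lower for H3K4me3. With the gene record alone the 3 members higher for H3K27me3 were lost and 1 other, Ephb2, was higher (97.5% and 99.4%, then 99.5% and 99.6%), and the Sema4f difference in H3K4me3 was -0.43. With stricter thresholds 0 members were lower for H3K27me3, and 2 had H3K4me3 alone at the start. Leaving out one library in turn, limma called 0 to 9 members for H3K4me1 (9, all lower, without the second 20% O2 library) and 0 to 2 for H3K27me3 (2, both higher, without the second 4% O2 library). edgeR called 0 to 1 H3K36me3 regions (1 without the first 20% O2 library: Plxnd1, log2 ratio 0.66, adjusted p = 0.034). The cause of these changes was not tested.

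With the library number as a block, limma called 16 members for H3K4me1, all lower at 4% O2, against 19.7% of all genes. The block gave edgeR 5 H3K36me3 regions, all higher (10.4% of all regions), and 5 H3K27me3 regions, 4 of them higher (11.7%). Regions of the same gene were counted separately. With the block no member was called for the other covered shares. Nothing in the labels says that a number pairs libraries. With 2 numbers, deviations of same-numbered libraries correlated at 0.229 (H3K4me3), 0.641 (H3K27ac), 0.456 (H3K4me1), 0.145 (H3K36me3) and 0.531 (H3K27me3) for covered shares, and at 0.50 and 0.435 for H3K36me3 and H3K27me3 density.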
